A study of Rattus norvegicus with 6 samples.

Results

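Nrf2, encoded by Nfe2l2, and 4 genes that it is known to activate (Hmox1, Nqo1, Gclc and Gclm) were followed in rat tenocytes with and without IL−1β. They were taken as 5 of the 19133 genes in the table by their Ensembl identifiers, and all 5 were present and passed the filter on low values. Tenocytes, the resident cells of tendon, had been isolated from Achilles tendons of Sprague–Dawley rats. Both groups grew in complete medium, to which nothing was added in the control group (n = 3 libraries) and IL−1β, a proinflammatory cytokine, was added at 50 ng/mL for 24 h in the IL−1β group (n = 3 libraries). The series text writes the dose beside the control cells, but the sample labels and the methods give it to the IL−1β group, which was followed here. The methods describe the data of the study in general as coming from independent experiments, without saying whether these libraries came from separate animals, and the p-values measure the spread between these libraries. The totals to which FPKM (mapped fragments divided by gene length and by the library total) were scaled lay between 36619503 and 43227283 reads per library. The libraries numbered 1 lay apart from the others of their group on the second principal component, which held 8.5% of the variance. Both lay on the same side (20.7 for control and 22 for IL−1β), with all other libraries on the opposite side. The fold changes, the counts of called genes and the Gclc to Gclm ratio were therefore also computed with replicates 2 and 3 only.

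Nrf2 is a transcription factor that is held in the cytoplasm by Keap1 and degraded while the cell is at rest. Oxidants and electrophiles release it from Keap1, and it then enters the nucleus, pairs with a small Maf protein and binds antioxidant response elements near its target genes. Its activity is therefore set largely at the protein level, and the level of its mRNA does not measure it. Among the targets, heme oxygenase-1 (Hmox1) breaks down heme and is also induced by many other stress signals, NAD(P)H quinone oxidoreductase (Nqo1) reduces quinones, and Gclc and Gclm encode the catalytic and the modifier subunit of glutamate–cysteine ligase, the first and rate-limiting enzyme of glutathione synthesis.

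The core of the antioxidant response element was searched as TGACNNNGC on both strands of the 250 bases before the start of each gene in RefSeq (GRCr8 assembly). Promoters of 4 of the 5 genes were matched by symbol, and that of Hmox1 was not. Of the 4, only Gclm held a match, read as TGACTAAGC on the strand opposite to the gene, from 172 to 164 bases before the start. A match was present in 10.1% of all 33469 promoters of the same length, and in 10 of the 44 promoters found for a list of 52 other genes of the Nrf2 pathway, among them Prdx1, Me1 and Mafk. The promoters of Gclm, the only gene with a match, and of Nqo1, the gene with the largest difference between the groups among the 5, are shown 5′ to 3′ on the strand of the gene, with the match in capitals. That of Gclm lies at chr2:213031885-213032134 (plus strand) and that of Nqo1 at chr19:52220268-52220517 (minus strand).
Gclm: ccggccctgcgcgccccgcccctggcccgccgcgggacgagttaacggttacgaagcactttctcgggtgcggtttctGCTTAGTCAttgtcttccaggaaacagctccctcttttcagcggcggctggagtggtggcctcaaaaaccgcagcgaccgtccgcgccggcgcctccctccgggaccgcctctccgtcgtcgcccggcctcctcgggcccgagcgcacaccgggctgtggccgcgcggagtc
Nqo1: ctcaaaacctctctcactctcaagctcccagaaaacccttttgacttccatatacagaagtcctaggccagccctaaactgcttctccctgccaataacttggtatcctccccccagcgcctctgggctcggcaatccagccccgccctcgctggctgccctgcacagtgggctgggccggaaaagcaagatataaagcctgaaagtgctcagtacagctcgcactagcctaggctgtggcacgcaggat
The match describes the letters alone, and a window without one says nothing of elements that lie elsewhere.

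The 5 genes did not move in one direction. With IL−1β, Hmox1 rose, Nqo1 and Gclc fell, and neither Nfe2l2 nor Gclm passed the test, although both had higher means in the IL−1β group. The call was an adjusted p under 0.05 in limma, fitted over all 12408 tested genes and adjusted with the Benjamini-Hochberg method. Thus 1 of the 5 genes was called higher and 2 were called lower, where 38.4% of all tested genes were called, 19.3% as higher and 19.1% as lower. None of the 5 passed the stricter thresholds of the study's methods, which add an absolute log2 fold change over 1 and which 8.69% of all tested genes passed. The study applied them to DESeq2, and here they were applied to limma, so its own calls for the 5 genes may differ. The median absolute log2 fold change was 0.63 over the 5 genes and 0.20 over all tested genes.

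**Figure D1:**
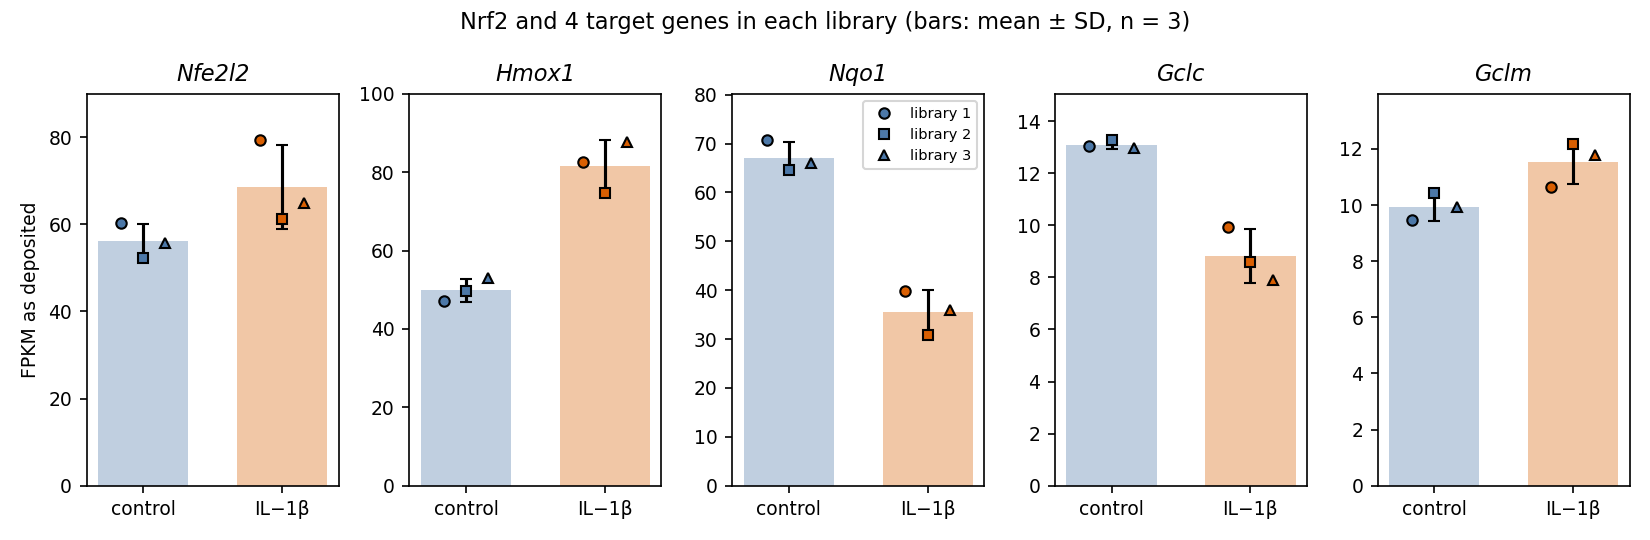
FPKM as deposited (y axis, from 0, with a separate scale per gene) of Nfe2l2, Hmox1, Nqo1, Gclc and Gclm in the control and IL−1β groups. Bars are means, error bars are SD (n = 3), and the circle, square and triangle are libraries 1, 2 and 3. As deposited, the points of the groups lie apart for every gene shown, which held for 52.0% of all tested genes. The gap is small for Nfe2l2 (60.3 against 61.2 at the nearest) and Gclm (10.4 against 10.7), and large for Nqo1 (64.5 against 39.8). After scaling between libraries, the groups of Nfe2l2 overlapped.

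For Nfe2l2 (ENSRNOG00000001548), the control libraries 1, 2 and 3 held 60.3, 52.3 and 55.6 FPKM and the IL−1β libraries 79.4, 61.2 and 64.9 FPKM. Library 1 was the highest in both groups, and as deposited the lowest IL−1β library lay just above the highest control library. After scaling between libraries the groups overlapped, since control library 1 (62.2) then lay above IL−1β library 2 (59.7). The means were 56.1 ± 4.0 and 68.5 ± 9.62 FPKM (SD, n = 3 each), and the log2 fold change was 0.22 (standard error 0.11, 95% interval −0.04 to 0.48, adjusted p = 0.16 in limma). The interval reaches from a level slightly below that of the control group to 1.40 times that level. Without IL−1β library 1 the log2 fold change was 0.10 (adjusted p = 0.316 in limma), and with replicates 2 and 3 only it was 0.16 (adjusted p = 0.068).

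Hmox1 (ENSRNOG00000014117) held 47.0, 49.8 and 52.9 FPKM in the control libraries and 82.5, 74.8 and 87.8 FPKM in the IL−1β libraries. All IL−1β libraries lay well above all control libraries. The mean rose from 49.9 ± 2.94 to 81.7 ± 6.55 FPKM (SD, n = 3 each), with a log2 fold change of 0.65 (standard error 0.07, adjusted p = 0.00028 in limma), which is 1.57-fold with a 95% interval of 1.40 to 1.76. It ranked 1190 of 12408 from the largest rise. With replicates 2 and 3 only, the log2 fold change was 0.60.

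Nqo1 (ENSRNOG00000012772) showed the opposite pattern, with 70.7, 64.5 and 66.1 FPKM in the control libraries and 39.8, 30.9 and 35.9 FPKM in the IL−1β libraries. No IL−1β library came near the control libraries. The mean fell from 67.1 ± 3.25 to 35.6 ± 4.48 FPKM (SD, n = 3 each), with a log2 fold change of −0.98 (standard error 0.10, adjusted p = 0.00023 in limma). The level with IL−1β was thus 0.507 times that of the control group, with a 95% interval of 0.432 to 0.596. Nqo1 ranked 503 of 12408 from the largest fall, and 10.1% of all tested genes had a larger absolute log2 fold change. Its value lay at the border of a 2-fold change, which it passed under 4 of the 16 alternatives, among them quantile normalization (−1.02) and replicates 2 and 3 only (−1.03).

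The genes of the subunits of glutamate–cysteine ligase differed from each other. Gclc (ENSRNOG00000006302), for the catalytic subunit, held 13.0, 13.3 and 13.0 FPKM in the control libraries and 9.93, 8.61 and 7.88 FPKM in the IL−1β libraries. The control libraries were nearly equal, and all IL−1β libraries lay below them. The spread of the control libraries (coefficient of variation 1.58%) was below the counting error of the one with the fewest Gclc reads (2.6%). Estimated from 3 libraries, this spread is too uncertain to show less variation than counting alone would give. The mean fell from 13.1 ± 0.170 to 8.81 ± 1.04 FPKM (SD, n = 3 each), with a log2 fold change of −0.63 (standard error 0.09, adjusted p = 0.0016 in limma), or 0.646 times the control level with a 95% interval of 0.555 to 0.753. With replicates 2 and 3 only, the log2 fold change was −0.72.

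Gclm (ENSRNOG00000013409), for the modifier subunit, held 9.45, 10.4 and 9.92 FPKM in the control libraries and 10.7, 12.2 and 11.8 FPKM in the IL−1β libraries. The groups did not overlap, but IL−1β library 1 lay close to control library 2. The means were 9.94 ± 0.493 and 11.5 ± 0.785 FPKM (SD, n = 3 each), with a log2 fold change of 0.16 (standard error 0.06, adjusted p = 0.099 in limma) and a 95% interval of 1.00 to 1.24 for the fold. On the log2 scale the interval was 0.004 to 0.306, just above no change. It is not adjusted for the number of tested genes, unlike the p-value. Gclm had the fewest reads of the 5 genes, between 543 and 782 per library, and the spread of its control libraries (coefficient of variation 4.28%) was about as large as the counting error of the one with the fewest Gclm reads (4.29%). Its call depended on single settings, since it passed without IL−1β library 1 (log2 fold change 0.20, adjusted p = 0.0475 in limma) and with FPKM as deposited (0.21, adjusted p = 0.0495). With quantile normalization (0.10, adjusted p = 0.273) and with replicates 2 and 3 only (0.17, adjusted p = 0.098), it did not pass.

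**Figure D2:**
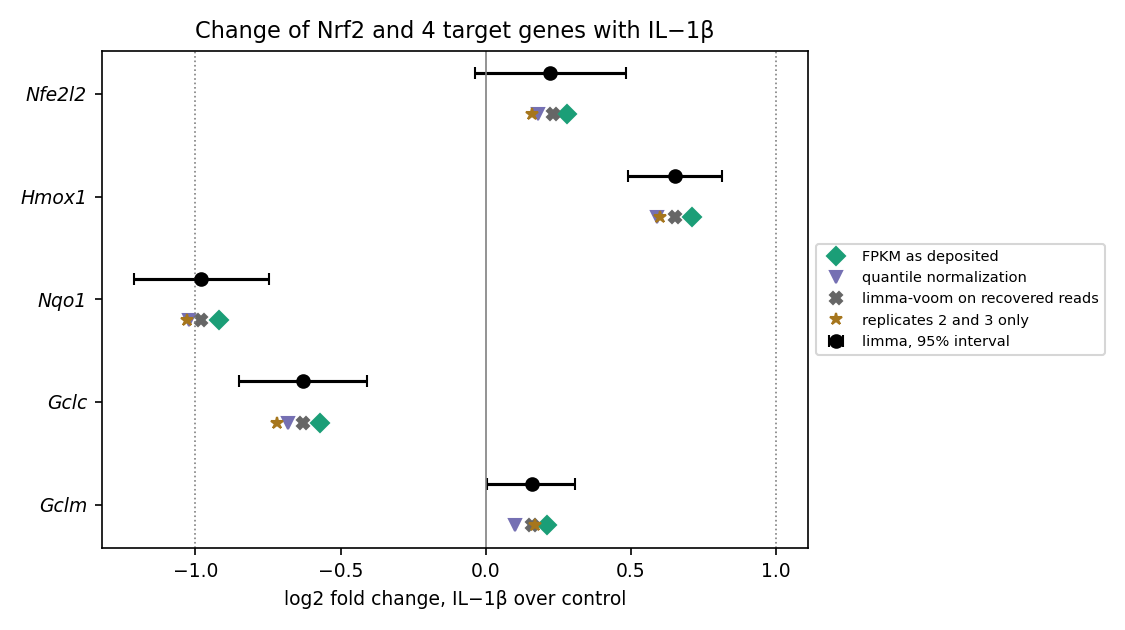
Log2 fold change of IL−1β over control (x axis) for the 5 genes. Black circles are limma values with their 95% intervals, the other symbols are the values with FPKM as deposited, quantile normalization, limma-voom on recovered reads, and replicates 2 and 3 only, and dotted lines mark a 2-fold change. The interval of Hmox1 lies to the right of 0, those of Nqo1 and Gclc lie to the left of it, and that of Nfe2l2 covers 0. That of Gclm begins just above 0. The intervals are not adjusted for the number of tested genes.

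All 5 genes had groups that did not overlap with FPKM as deposited, which held for 52.0% of all tested genes. After scaling, 4 of the 5 did so, against 51.4% of all tested genes. Gclm was among them by a near tie (10.61 in control library 2 against 10.62 in IL−1β library 1). An exact permutation test of a single gene with 3 libraries against 3 cannot give a p below 0.10. The calls therefore rest on limma, which combines the spread of each gene with one estimated over all tested genes. In cultured cells measured in bulk, fewer cells of one kind and less RNA per cell cannot be told apart.

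FPKM are divided by gene length, so the 5 genes can be ordered within each group. The order depends on the lengths used, for which the annotation is not given. In the control group the order of mean FPKM was Nqo1 (67.1), Nfe2l2 (56.1), Hmox1 (49.9), Gclc (13.1) and Gclm (9.94). Nfe2l2 and Hmox1 overlapped in their libraries, and the other neighbours in this order did not. In the IL−1β group the order was Hmox1 (81.7), Nfe2l2 (68.5), Nqo1 (35.6), Gclm (11.5) and Gclc (8.81). Here Hmox1 and Nfe2l2 overlapped, and the others again did not. In mean FPKM, Nqo1 thus went from the first to the third place, Hmox1 from the third to the first, and Gclc and Gclm changed places. By mean log2 level over the 6 libraries, Nfe2l2, Hmox1 and Nqo1 stood at percentiles 90.6, 90.9 and 88.1 of the tested genes, and Gclc and Gclm at 57.2 and 57.1.

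A ratio of 2 genes within a library does not depend on the scaling between libraries. The ratio of Gclc to Gclm in FPKM was 1.38, 1.27 and 1.31 in the control libraries and 0.931, 0.707 and 0.669 in the IL−1β libraries. In FPKM, Gclc was thus the higher of the pair in every control library and the lower in every IL−1β library. This order depends on the lengths implied by the deposited values (3045 bases for Gclc and 1486 for Gclm). In reads not divided by length, Gclc was the higher in every library (IL−1β libraries: 1124, 1133 and 884, Gclm 589, 782 and 645). The change of the ratio between the groups does not depend on the lengths. The mean ratio was 1.32 ± 0.0543 without and 0.769 ± 0.142 with IL−1β (SD over 3 libraries each; difference of mean log2 ratios −0.79; exact two-sided permutation test, p = 0.10, the smallest that 3 against 3 can give). With replicates 2 and 3 only, the difference was −0.91. The ratio of Hmox1 to Nqo1, chosen after the values were seen and given without a test, was 0.664, 0.771 and 0.800 in the control libraries and 2.07, 2.42 and 2.44 in the IL−1β libraries. In both ratios IL−1β library 1 was nearest to the control libraries.

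**Figure D3:**
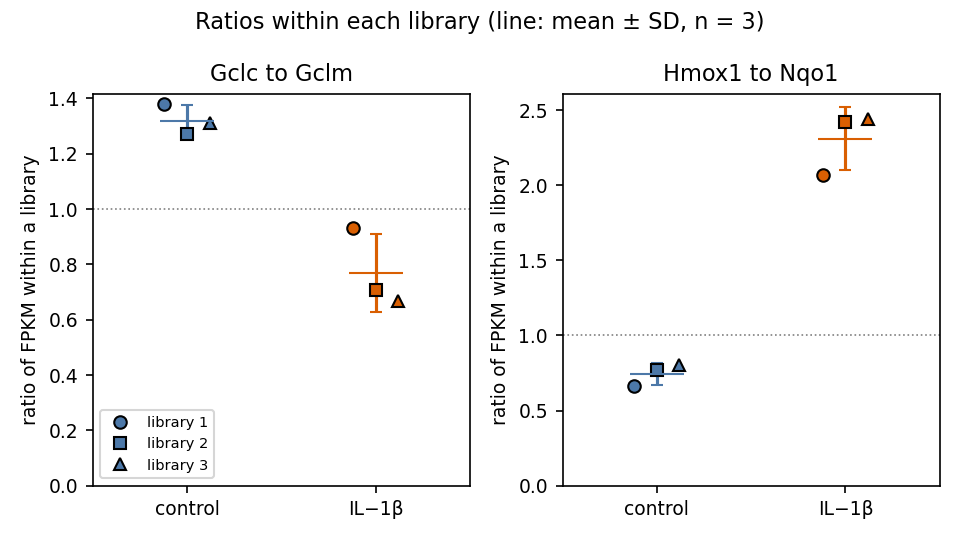
Ratio of FPKM within a library (y axis, from 0) of Gclc to Gclm and of Hmox1 to Nqo1. Points are libraries, lines and error bars are mean ± SD (n = 3), and the dotted line marks equal FPKM. Gclc to Gclm lies above 1 in the control group (mean 1.32) and below 1 in the IL−1β group (0.769), and Hmox1 to Nqo1 lies below 1 (0.745) and then above it (2.31).

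**Figure D4:**
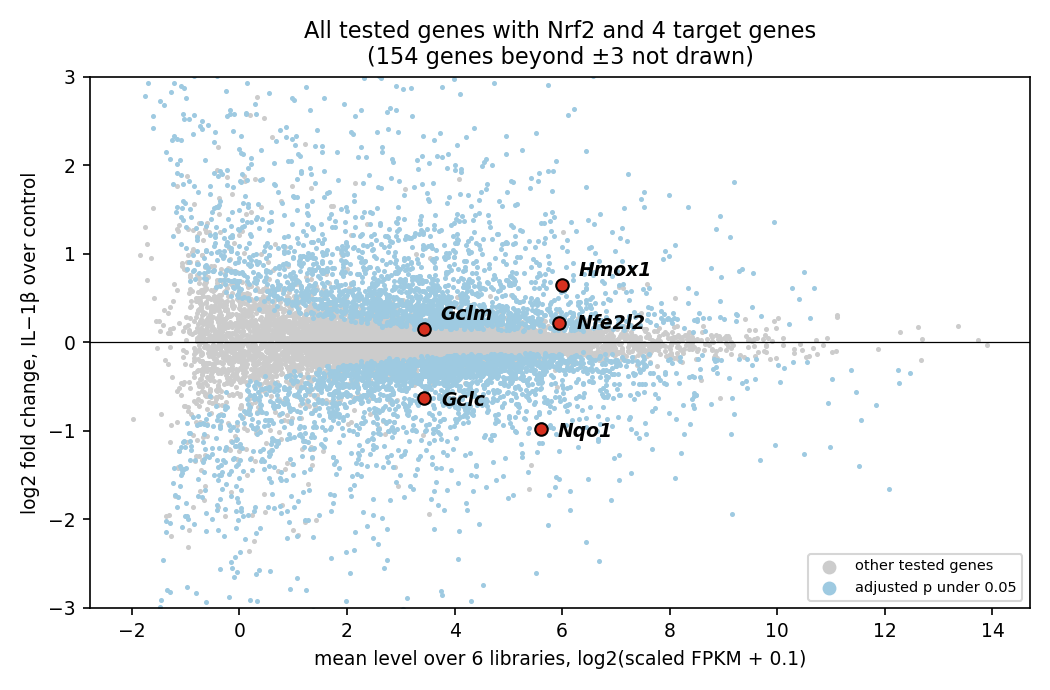
Log2 fold change of IL−1β over control (y axis) against the mean level over the 6 libraries (x axis, log2 of scaled FPKM + 0.1) for all tested genes, with those at an adjusted p under 0.05 in blue and the 5 genes as red circles. The 154 genes beyond an absolute log2 fold change of 3 are not drawn. The 5 genes lie in the middle and upper part of the levels, with Hmox1 at 0.65, Nqo1 at −0.98 and Gclc at −0.63.

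The tested gene most like Nfe2l2 across the 6 libraries was ENSRNOG00000011016, with a Pearson correlation of the log2 values of 0.9864. Its values were 10.7, 8.93 and 9.53 FPKM in the control libraries and 18.8, 11.8 and 12.4 FPKM in the IL−1β libraries. They were highest in library 1 of each group, which follows from choosing the gene by its likeness to Nfe2l2. The gene most like Hmox1 was ENSRNOG00000027489 (0.9989), with 0.793, 0.851 and 0.952 FPKM in the control libraries and 1.64, 1.41 and 1.76 FPKM in the IL−1β libraries. A correlation above 0.95 was found with 45 tested genes for Nfe2l2 and with 1059 for Hmox1. These correlations are descriptions over 6 libraries that fall into 2 groups, and are given without a test.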

How the data were processed

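The authors deposited 1 FPKM value per gene and library, without pooling. The submitters' processing notes name HISAT2 and featureCounts, while the genome build and annotation are not given in the sources used here. Because strand use is also not given, reads of genes that overlap on opposite strands could be shared. Reads of near-identical genes could be shared as well. The deposited table lists Ensembl identifiers, and 0 of 19133 could be paired with symbols through the RefSeq table. The symbols of the 5 genes were given with their identifiers when they were chosen, and other pathway genes and tenocyte markers could not be matched, so neither their values nor the labelled cell type were checked. The genes and lists were chosen with earlier results of these data known.

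FPKM were scaled by median-of-ratios factors (0.969 to 1.032), converted to log2 after adding 0.1, filtered at 0.5 FPKM in at least 3 libraries and fitted without a block in R 4.3.3 with limma 3.58.1 (two-sided, intensity trend, Benjamini-Hochberg). The log2(FPKM + 0.1) scale understates the change of low genes. Genes named are the 5 and, for Nfe2l2 and Hmox1, the tested gene with the highest correlation. Whole reads were recovered from the FPKM steps for all 12408 tested genes (tolerance 0.005 read; Python 3.11.15, numpy 2.4.6, pandas 2.3.3), and counting errors from them cover counting alone. The fit was tested on simulated data. So was the recovery, although there the reads were recovered from the simulated totals and the recovered totals were checked apart. DESeq2, which the authors used on counts, was not run on FPKM. Figures were drawn with matplotlib 3.10.9.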

Additional observations from a re-analysis of the deposited data

How the results depend on the processing

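Results were recomputed with a pseudocount of 1 or 0.01, without a filter or with one of 1 FPKM, with FPKM as deposited, quantile normalization, no trend, the replicate number as a block, limma-voom on recovered reads, each library left out, and replicates 2 and 3 only, the last added after seeing the data. Under these 16, no gene of the 5 changed direction, and Hmox1 (log2 fold change 0.59 to 0.72), Nqo1 (−1.08 to −0.88) and Gclc (−0.73 to −0.55) passed in each. Nfe2l2 passed only with the replicate block (0.22, adjusted p = 0.029 in limma), and its values ranged from 0.10 to 0.30. Gclm passed with FPKM as deposited (0.21, adjusted p = 0.0495) and without IL−1β library 1. Its range was 0.10 (quantile normalization) to 0.21 over all 16 and 0.12 to 0.20 with 1 library left out. The cause of these changes was not tested.

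The labels do not say that a shared replicate number marks a shared animal or culture. Deviations of same-numbered libraries correlated at 0.094 (number 1, the highest of any pair), 0.021 and 0.034. Control library 2 correlated best with IL−1β library 3 (0.061). The block lowered the standard error of Nfe2l2 from 0.111 to 0.054. Whether the libraries numbered 1 share a source was not tested. With the block, 4299 of the tested genes were called in place of 4762. The share of calls that were higher was 50.3%, 61.1% with FPKM as deposited and 41.2% with quantile normalization. Counting error was largest for Gclm among the 5 genes, although its standard error in limma was the smallest (0.064).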
